A study of Homo sapiens with 4 samples.

Results

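Transcripts of 8 prostate genes known to respond to androgen were read on microarrays in LNCaP and PC3 cells exposed to atorvastatin (ATO). The genes were KLK2, KLK3, TMPRSS2, FKBP5, STEAP2, SLC45A3, ACPP and FOLH1. They were chosen by name, and every gene probe that carried 1 of these names in the array design was taken, which gave 13 of 34127 probes and 8 of 27224 gene names. KLK2, KLK3, STEAP2, ACPP and FOLH1 had 2 probes each (5 genes), and TMPRSS2, FKBP5 and SLC45A3 had 1 each (3 genes). ACPP is the name in the array design of the gene now called ACP3.

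The study compared each line without treatment (control) with the same line after 10 µM ATO for 24 h, and its 4 groups (control and ATO of LNCaP, control and ATO of PC3) had 1 array each. Both are established human prostate cancer cell lines, both were grown in RPMI medium with fetal bovine serum, and the labels name neither a vehicle for the controls nor any androgen or steroid-stripped serum. LNCaP cells grow in response to androgen, whereas PC3 cells are a standard model of androgen-independent prostate cancer. ATO is a statin, a drug that blocks the supply of mevalonate, from which cells build cholesterol. Each group is 1 culture of 1 line, so a fold within a line is not checked by any replicate, and precision is limited by how few arrays there are.

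Androgens, the male sex steroids, act on the secretory luminal cells of the prostate through response elements in DNA, where paired copies of a hexamer take up a steroid receptor dimer. Genes that respond to androgens are known for the proteins of seminal fluid, for membrane proteins used as markers of prostate cancer, and for a chaperone of steroid receptors. Androgen was not varied between these groups, so the direction of each gene's response to it was not tested. Androgens are made from cholesterol, the end product of the pathway that statins block.

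The 250 bases in front of the start sites of KLK2 and KLK3 are shown because these neighbours on chromosome 19 encode closely related proteases and were both bright in LNCaP and dark in PC3. Both sequences are the RefSeq reference of GRCh38.p14, at chr19:50873189-50873438 for KLK2 and chr19:50854665-50854914 for KLK3, on the plus strand, 5′ to 3′. Capitals mark the 15 bases nearest to the androgen response element, searched on both strands as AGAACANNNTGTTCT, of which 12 letters were compared.
KLK2: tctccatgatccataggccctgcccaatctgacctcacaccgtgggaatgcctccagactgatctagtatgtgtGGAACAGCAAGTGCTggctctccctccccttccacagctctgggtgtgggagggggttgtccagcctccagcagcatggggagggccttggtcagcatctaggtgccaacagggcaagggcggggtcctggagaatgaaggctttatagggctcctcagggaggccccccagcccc
KLK3: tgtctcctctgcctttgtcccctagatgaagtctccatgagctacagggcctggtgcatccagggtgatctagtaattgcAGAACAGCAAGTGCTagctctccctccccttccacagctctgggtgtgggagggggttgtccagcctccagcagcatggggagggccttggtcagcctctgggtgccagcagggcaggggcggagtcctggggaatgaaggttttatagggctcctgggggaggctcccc

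The marked bases lie 176 to 162 bases upstream of the start in KLK2, with 3 mismatches to the element, and 170 to 156 bases upstream in KLK3, with 2 mismatches. Aligned to each other, the KLK2 and KLK3 sequences were identical at 207 of 259 columns (79.9%). Of 35116 promoters in the table, 1.18% hold a match with at most 2 mismatches, 9.17% one with at most 3, and 0.00285% an exact one. Of the 8 genes, 6 have an entry there (8 entries in all). TMPRSS2 and FOLH1 have none. The best match had 3 mismatches for FKBP5 and for 1 of its 2 start sites only, likewise 3 for 1 of 2 start sites of STEAP2, 4 for ACPP and 6 for SLC45A3. The hexamer AGAACA occurs in 12.4% of all promoters and, among these genes, in that of KLK3 alone. Only the 250 bases upstream of each start were searched, so elements farther away or within the genes were not looked for. A match of letters describes the sequence and does not show that any factor binds there.

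On each array 48.5% to 52.9% of the gene spots were well above background, the scanner software's call for a signal clear of the local background, and no spot was saturated (0). Levels below are the software's processed intensity units, and log2 values are relative to the 75th percentile of the array, which ranged from 497 to 588 units. Copies of 1 probe on an array had a median SD of 0.09 to 0.10 on the log2 scale, which makes 0.13 for a difference between arrays. That is an error of the spot, not of the culture. A local background brighter than usual touched 0.176% of probes on LNCaP control, 15.4% on LNCaP ATO, 9.45% on PC3 control and 16.7% on PC3 ATO, and is stated beside the log2 ratios it touched. All 13 probes had a single spot. The lower rows of the array, where the background of LNCaP ATO was least even, held 5 of them, those of TMPRSS2 and SLC45A3 and 1 each of KLK2, ACPP and FOLH1.

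Of the secreted proteins, KLK3 is prostate-specific antigen, the protease that liquefies semen and the serum marker of prostate cancer. Its brighter probe (hg18, chr19:56055773-56055832, plus strand) gave 65987 units in LNCaP control and 65646 in LNCaP ATO, and 11.2 on either PC3 array. The dimmer probe (chr19:56051694-56051753) gave 3099, 3306, 11.7 and 11.6 units in the same order. Both probes were bright in LNCaP and not well above background in PC3. The log2 ratio of ATO over control in LNCaP was -0.11 (1.08-fold lower) by the brighter probe and -0.01 by the dimmer one.

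KLK2 encodes the related protease that can activate the KLK3 protein. Its brighter probe (hg18, chr19:56071819-56071991, plus strand) is 60 bases long but spans 173 bases of the genome, so it crosses an intron and reads spliced transcript. It gave 9228 units in control and 8743 in ATO for LNCaP, and 11.6 and 11.8 for PC3. The second probe (chr19:56075035-56075094) gave 175, 224, 16.5 and 17.3 units, with a bright local background on LNCaP ATO. The probes disagreed on the direction after ATO in LNCaP, with log2 ratios of -0.18 for the brighter and 0.26 for the second, and neither reached 1.5-fold. Like KLK3, KLK2 was not well above background in PC3 by either probe.

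ACPP encodes prostatic acid phosphatase, a secreted and membrane-bound enzyme that served as a serum marker before prostate-specific antigen. One of its probes (hg18, chr3:133560033-133560092, plus strand) gave 316 units in control and 297 in ATO for LNCaP, and 13.4 and 16.3 for PC3, with a bright local background on LNCaP ATO and PC3 control. The other (chr3:133551488-133554264) spans 2777 bases and crosses an intron too, and gave 63.2, 58.4, 11.3 and 13.9 units. Both were above background in LNCaP and not in PC3, and their log2 ratios after ATO in LNCaP were -0.19 and -0.22. With the background correction called normexp the former turned to 0.09.

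The intron-crossing probes are printed because only spliced RNA, not genomic DNA, can pair with them over their whole length. They are given 5′ to 3′ as the array files hold them, in lower case throughout since no part is singled out.
KLK2 probe: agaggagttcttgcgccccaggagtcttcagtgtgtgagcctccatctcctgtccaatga
ACPP probe: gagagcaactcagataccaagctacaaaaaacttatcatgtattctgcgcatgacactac

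Among the membrane proteins, FOLH1 is prostate-specific membrane antigen, a folate hydrolase on the cell surface used as a target of imaging and therapy. Its probes gave 28960 and 7535 units in LNCaP control and 31700 and 8349 in LNCaP ATO (hg18, chr11:49124936-49124995 and chr11:49161278-49161337, minus strand). In PC3 the brighter probe gave 25 units in control and 65.5 in ATO, the latter in a bright local background of 183 units where the median of that array was 90.0. The second probe gave 10.7 and 11.5 units in PC3. Neither probe was well above background in PC3, so no fold was taken there, and in LNCaP the log2 ratios were 0.03 and 0.05. FOLH1B is a near-identical copy, and the probes of either gene may also take up transcripts of the other. The FOLH1B probe gave 14862 and 13484 units in LNCaP. In PC3 it went from 14.6 units, not well above background, to 139 in a bright local background of 286 units, a bound of at least 2.75-fold, and what the background contributed was not tested. For a probe dark on 1 array, such a bound sets the bright value against whichever is higher on the dark array, the probe itself or the dimmest signal still well above background.

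TMPRSS2 is a serine protease of the cell surface whose promoter is fused to ETS factor genes in many prostate tumours. Its probe (hg18, chr21:41758774-41758833, minus strand) gave 5793 units in LNCaP control and 6065 in LNCaP ATO. In PC3 it gave 392 units in control and 770 in ATO, with usual local backgrounds. The log2 ratio was -0.03 in LNCaP, with a sign that changed between scalings, and 1.02 in PC3 (2.03-fold higher). In PC3 210 of 12513 genes measured on both arrays (1.68%) were higher by as much or more. By the software's own estimate the intensity error of the spot was 40.6 units in control and 77.8 in ATO, smaller than the gap between the arrays.

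SLC45A3 encodes prostein, a membrane protein of the sugar transporter family that is largely restricted to prostate epithelium. Its probe (hg18, chr1:203893660-203893719, minus strand) gave 14516 units before and 16463 after ATO in LNCaP, and 1395 and 2028 in PC3. LNCaP had a log2 ratio of 0.08 and PC3 one of 0.59 (1.5-fold), just inside the threshold of 0.58. It fell outside the threshold with spike-in scaling and with normexp, the lowest value being 0.49. In PC3 7.24% of the genes measured on both arrays were higher by as much or more.

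STEAP2 is a metalloreductase that lets cells take up iron and copper. Its brighter probe (hg18, chr7:89704473-89704532, plus strand) gave 7805 units in control and 9980 in ATO for LNCaP, and 460 and 417 for PC3, the last in a bright local background of 153 units. The second probe (chr7:89699789-89699848) gave 851, 963, 27.1 and 16.9 units, the PC3 values not well above background. STEAP2 had the largest LNCaP log2 ratio of the 8 genes, 0.25 (1.19-fold), against 0.08 by its second probe. In PC3 it was at -0.09, and the sign changed between scalings.

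FKBP5 encodes FKBP51, a co-chaperone bound to HSP90 that modulates steroid receptors and is itself induced by androgens and by glucocorticoids. Its probe (hg18, chr6:35649906-35649965, minus strand) gave 2659 units in LNCaP control and 2579 in LNCaP ATO. In PC3 it gave 326 units in control and 159 in ATO, with errors of 34.4 and 19.2 units. LNCaP had a log2 ratio of -0.14 and PC3 one of -0.99 (1.98-fold lower), and 1.83% of the genes measured on both PC3 arrays were lower by as much or more. The local background of the spot on PC3 ATO was bright, at 124 units against a median of 90.0, and its part in the result was not tested. With normexp the PC3 log2 ratio was -0.64.

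**Figure D1:**
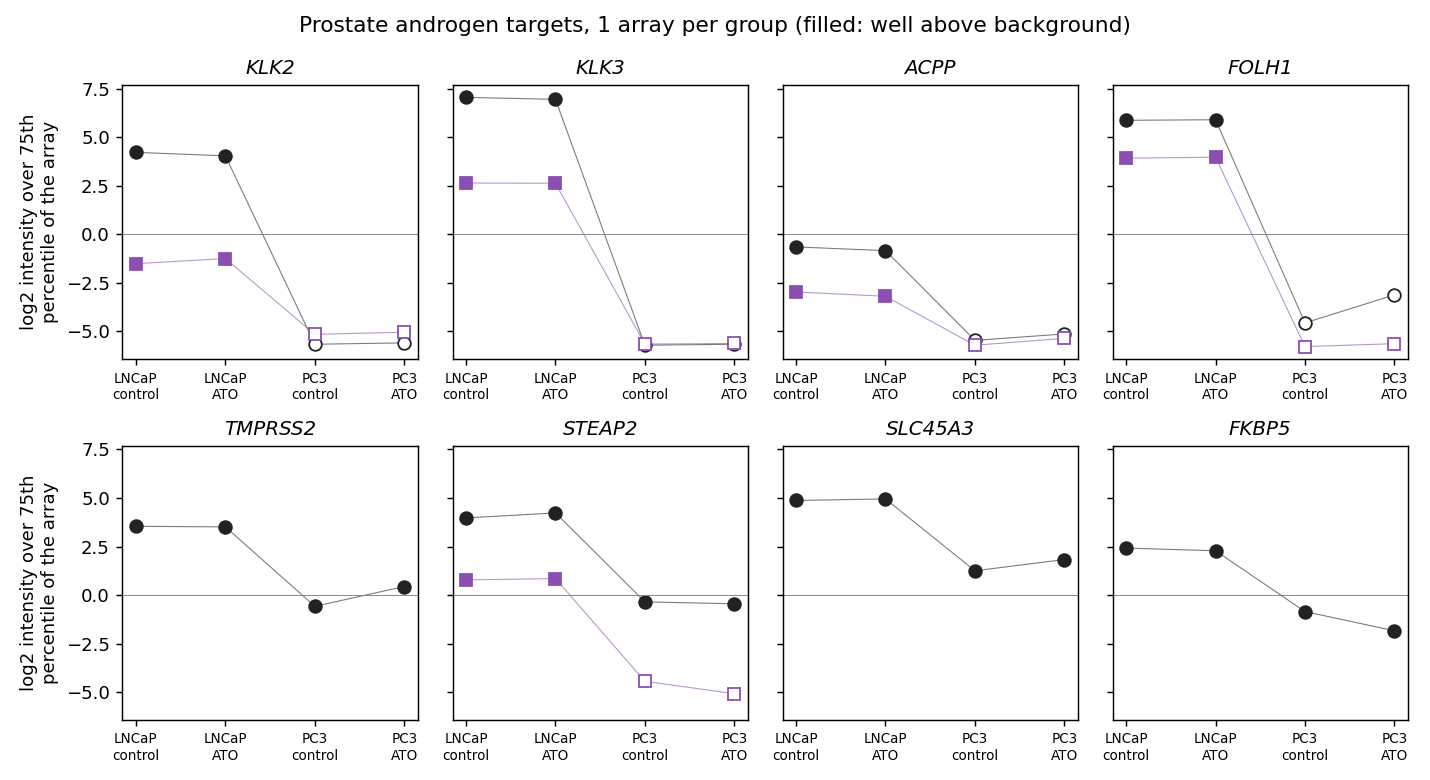
Level of each probe of the 8 genes on the 4 arrays, as log2 intensity over the array's 75th percentile (grey line at 0). Circles are the brightest probe and squares the second one, filled where well above background and open where not; KLK2, KLK3, ACPP and FOLH1 are open on both PC3 arrays, and the other 4 genes keep a filled brightest probe there.

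In LNCaP the 8 genes were nearly level after ATO. None of them (0 of 8) reached 1.5-fold, where 4.75% of all genes with a value did (653 of 13739, 2.77% higher and 1.99% lower). Their log2 ratios ran from -0.19 for ACPP to 0.25 for STEAP2, 3 above 0 and 5 below, with a median of -0.07 against 0.00 over all genes. Over all 13 probes the range was -0.22 to 0.26, with 6 above 0, and of the 5 genes with 2 probes 4 had both on the same side of 0. The share of genes that moved as far or farther in LNCaP, in either direction, lay between 17.3% for STEAP2 and 84.9% for FOLH1. With 1 array per group no smallest detectable change can be given.

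In PC3, 4 of the 8 genes had a value and the other 4 were not well above background on either array. Of these 4, 3 reached 1.5-fold, TMPRSS2 and SLC45A3 higher and FKBP5 lower, whereas STEAP2 did not. Over all genes with a value in PC3 18.5% passed (2552 of 13815), 8.20% higher and 10.3% lower. The median of the 4 was 0.25 against -0.01 over all genes. Their log2 ratios ran from -0.99 to 1.02, with 2 above 0 and 2 below, so they had no common direction. In LNCaP the same 4 ran from -0.14 to 0.25. Whether fewer cells with a transcript or less of it per cell lies behind a lower level cannot be told apart in RNA from whole cultures.

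**Figure D2:**
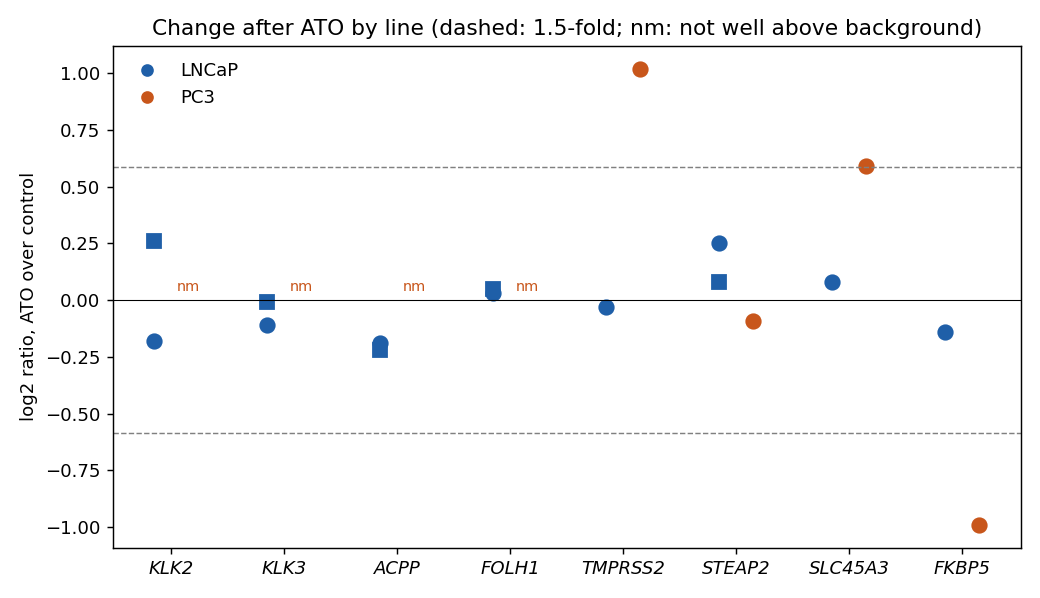
Log2 ratio of ATO over control for each gene, blue for LNCaP and orange for PC3, with circles for the brightest probe and squares for the second one. Dashed lines mark 1.5-fold and "nm" a gene not well above background in PC3; every LNCaP point lies between -0.22 and 0.26, and in PC3 TMPRSS2 (1.02), SLC45A3 (0.59) and FKBP5 (-0.99) lie outside the dashed lines.

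The lines were then compared without treatment, at 2-fold. All 8 genes were higher in LNCaP control than in PC3 control (8 of 8), where 39.6% of all genes with a value differed by that much, 19.0% being higher in LNCaP and 20.6% lower. For the genes not well above background in PC3 only a bound can be given, 1499-fold or more for KLK3, 658-fold for FOLH1, 210-fold for KLK2 and 7.17-fold for ACPP. The bound for ACPP is small because its probe was dim in LNCaP. A bound of this kind could only favour LNCaP, so the direction was fixed in advance for these 4 genes. With probes well above background on both control arrays, 4 of 4 genes were higher in LNCaP. The genes measured in both lines were 20.1-fold higher in LNCaP for STEAP2, 17.5-fold for TMPRSS2, 12.3-fold for SLC45A3 and 9.66-fold for FKBP5.

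The ATO arrays gave the same order of lines. By the same bounds LNCaP ATO exceeded PC3 ATO at least 1303-fold for KLK3, 517-fold for FOLH1, 174-fold for KLK2 and 5.89-fold for ACPP, and 39.3% of all genes differed by 2-fold (21.4% higher in LNCaP, 17.9% lower). STEAP2 was 25.5-fold higher, FKBP5 17.3-fold, SLC45A3 8.67-fold and TMPRSS2 8.42-fold. Across the 2 pairs of arrays the gap between lines was thus narrower after ATO for TMPRSS2 and SLC45A3 and wider for FKBP5 and STEAP2, and these differences between the pairs were not tested.

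limma with the treatment as a block tested the difference between lines with 1 residual degree of freedom. The arrays of a line are 1 control and 1 ATO culture, not replicates. The SE and p-value set the mean difference against how far the untreated and treated differences lay apart, not against variation between cultures. The test is given for the 4 genes measured in both lines, since the PC3 values of KLK2, KLK3, ACPP and FOLH1 were not well above background. The mean log2 difference, LNCaP minus PC3, was 4.5 ± 0.16 (SE) for STEAP2 and 3.69 ± 0.27 for FKBP5, with adjusted p-values of 0.00146 and 0.00379 by limma (Benjamini-Hochberg over all genes). It was 3.60 ± 0.32 (SE) for TMPRSS2 and 3.37 ± 0.19 for SLC45A3, with adjusted p-values of 0.00540 and 0.00257 by limma. All 4 passed an adjusted p of 0.05, as did 58.1% of all genes tested (7985 of 13733), 32.6% being higher in LNCaP.

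**Figure D3:**
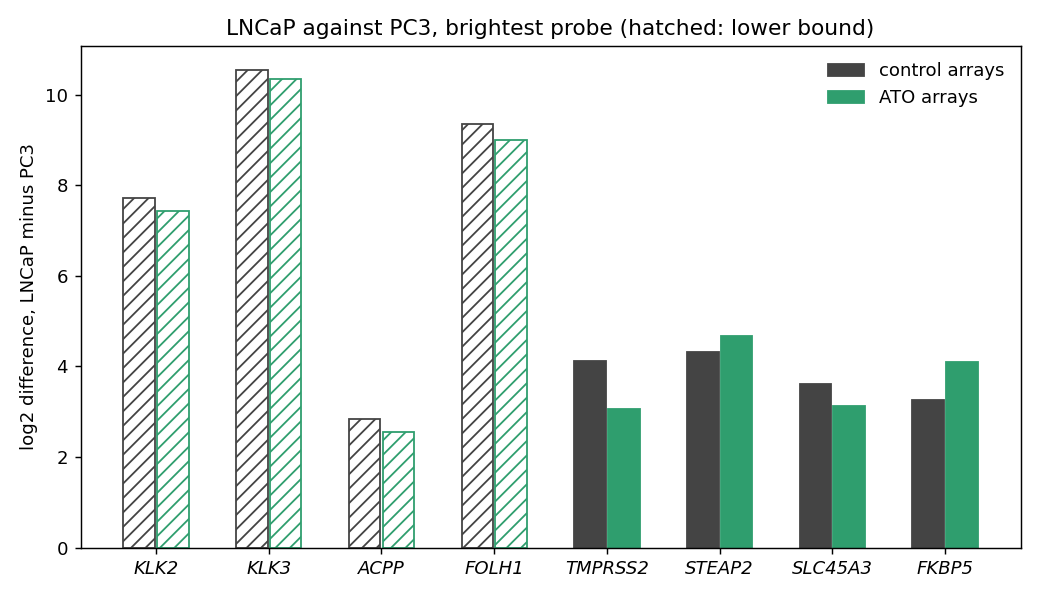
Log2 difference of LNCaP minus PC3 for the brightest probe of each gene, grey for the control arrays and green for the ATO arrays. Hatched bars are lower bounds (KLK2, KLK3, ACPP and FOLH1), which could not fall below 0, and filled bars are measured differences. Every bar is above 0, and with ATO the TMPRSS2 bar drops from 4.13 to 3.07.

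The limma test of the treatment, with cell line as a block, took the lines as replicates and could be run for the 4 genes measured in both. None passed, as for all genes (0 of 11902, 0%, with 532 at an unadjusted p under 0.05). The mean log2 ratio over both lines was 0.49 ± 0.31 (SE) for TMPRSS2, -0.56 ± 0.26 for FKBP5, 0.33 ± 0.19 for SLC45A3 and 0.08 ± 0.16 for STEAP2. The limma adjusted p was 0.889 for STEAP2 and 0.762 for the other 3. The ratio in PC3 minus that in LNCaP was 1.05 for TMPRSS2 and -0.84 for FKBP5 on the log2 scale. That difference between lines was not tested, since each ratio rests on 1 array per group.

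Around the 8 genes stand lists taken from general knowledge. Their counts are to be read beside the shares of all genes past 1.5-fold, 4.75% in LNCaP and 18.5% in PC3. Chaperones, transcription factors and coregulators of the androgen response, 23 genes, stayed near 0 in LNCaP, where 0 of 22 reached 1.5-fold and the median was -0.04. PIAS1, a SUMO ligase, had the largest measured ratio there at -0.39, from 473 to 388 units. In PC3, 2 of 22 were higher and 1 lower (13.6%), with a median of -0.02. In neither line did the count exceed the share over all genes. FKBP4, which encodes FKBP52, the co-chaperone that competes with FKBP51 for HSP90, went from 2407 to 1507 units in PC3 (-0.63), and SPDEF, an ETS factor of luminal cells, from 3352 to 4968 in a bright local background (0.62). Across scalings FKBP4 came to -0.43 and SPDEF to 0.48, where neither passed 1.5-fold. The other higher gene was the coactivator gene NCOA2, by a bound of at least 2.00-fold in a bright local background.

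Other androgen targets, 33 genes, gave 1 higher and 1 lower of 28 in LNCaP (7.14%, against 4.75% of all genes), with a median of 0.03. TSC22D1 went from 2831 to 4736 units in LNCaP (0.64), and SORD, sorbitol dehydrogenase, from 12902 to 8250 (-0.75). The second SORD probe, dimmer but well above background, gave 128 and 136 units in LNCaP (-0.01), so the lower call rests on the brighter probe. In PC3, 2 of 21 were higher and 4 lower (28.6%, against 18.5% of all genes), with a median of -0.07. NDRG1, a stress and differentiation gene, went from 7212 to 32645 units in PC3 (2.23, 4.68-fold), against 0.01 in LNCaP, in a bright local background and with a sign that changed between scalings. HPGD, which breaks down prostaglandins, went from 207 to 556 units (1.48), and C1orf116 from 2543 to 1089 (-1.18). The other lower genes were PMEPA1 (-0.93), SLC43A1 (-0.81) and ELL2 (-0.70, in a bright local background). Over the genes of this list measured on both arrays of a line, log2 ratios had an SD of 0.25 in LNCaP and 0.79 in PC3, where it was 0.24 and 0.44 over all genes, and the difference was not tested.

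Lipid genes under both androgen and sterol control were read as well. Of these 9 genes, LNCaP had 4 at least 1.5-fold higher after ATO and PC3 4, and none lower, with medians of 0.50 and 0.39. That is 44.4% in each line, against 4.75% of all genes in LNCaP and 18.5% in PC3. HMGCS1, a synthase early in the mevalonate pathway, was at 1.86 in LNCaP and at 0.62 in PC3, there in a bright local background and under the threshold at its lowest across scalings (0.53). INSIG1, which holds the sterol sensor back, was at 1.38 and 1.16, and SQLE, squalene epoxidase, at 1.16 and 0.84. The other gene was IDI1 in LNCaP (0.94) and the desaturase gene SCD in PC3 (0.59). In limma 0 of the 9 passed after adjustment, and 5 had an unadjusted p under 0.05.

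Of the genes of androgen synthesis and inactivation, 8 of the 18 on the array had a value in LNCaP and 9 in PC3. In LNCaP 1 of 8 was higher (12.5%, against 4.75% of all genes). This was UGT2B15, which conjugates androgens for removal and belongs to a near-identical family that probes may not separate. It went from 1963 to 3339 units (0.67, and 0.56 at the lowest across scalings, under the threshold). In PC3 3 of 9 were higher and 1 lower (44.4%, against 18.5% of all genes). AKR1C3, which makes testosterone from androstenedione, went from 742 to 2022 units (1.49), the sulphotransferase SULT2B1 from 292 to 578 (1.03) and the sulphatase STS from 143 to 216 (0.64, and 0.54 at the lowest across scalings), each in a bright local background on at least 1 PC3 array, whose part was not tested. The lower gene was CYP17A1, a steroid hydroxylase, by a bound of at least 3.47-fold, also in a bright local background.

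FKBP5 is also a target of the glucocorticoid receptor, so that receptor's gene NR3C1 and genes under both androgen and glucocorticoid control were read. NR3C1 ran opposite to the 8 genes between the lines, at 5.70 and 10.8 units in LNCaP, not well above background, and 1605 and 1283 units in PC3 control and PC3 ATO (log2 ratio -0.28, and -0.28 by its second probe, each with 1 PC3 array in a bright local background). Of the 10 genes 0 of 9 reached 1.5-fold in LNCaP (median 0.10), DUSP1 having the largest ratio at 0.41 in a bright local background, and in PC3 2 of 8 were higher and 1 lower (median -0.04). Shares past 1.5-fold in this list were 0% in LNCaP and 37.5% in PC3, against 4.75% and 18.5% of all genes. TSC22D3, the leucine zipper gene GILZ induced by glucocorticoids, went from 654 to 1887 units in PC3 (1.58) and the kinase gene SGK1 from 1750 to 689 (-1.30), both in bright local backgrounds. ERRFI1, which restrains the EGF receptor, went from 3343 to 6625 (1.03). FKBP5 and SGK1 were thus lower and TSC22D3 higher on the same PC3 arrays.

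The 8 genes have 28 listed paralogs on the array. In LNCaP 12 had a value and 0 reached 1.5-fold, with FKBP1A having the largest measured ratio at 0.30 in a bright local background. The other FKBP1A probes lay between -0.10 and 0.04 in LNCaP. In PC3 12 had a value and 1 was higher, FOLH1B as given above, and ACP6 had the largest measured ratio at 0.51. The shares, 0% in LNCaP and 8.33% in PC3, were under those over all genes (4.75% and 18.5%). Between the control arrays 1 of 13 exceeded 2-fold in favour of LNCaP (FOLH1B, whose probe may also take up FOLH1). In favour of PC3 were 5 (KLK5, KLK6, STEAP3, FKBP1A and ACP6). The values of FOLH1B and KLK6 are bounds. Of the genes themselves 8 of 8 were higher in LNCaP, 4 of them by bounds that could only favour LNCaP. Over all genes 19.0% were higher in LNCaP and 20.6% lower. Other androgen targets had 16 of 29 higher and 7 lower, and lipid genes 7 of 9 higher and 0 lower. For the other androgen targets measured in both lines the median difference was 0.13, against 0.12 over all genes so measured. Chaperones, factors and coregulators had 6 of 23 higher and 2 lower. Androgen synthesis and inactivation had 5 of 12 higher and 5 lower, and the glucocorticoid list 3 of 10 higher and 4 lower.

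**Figure D4:**
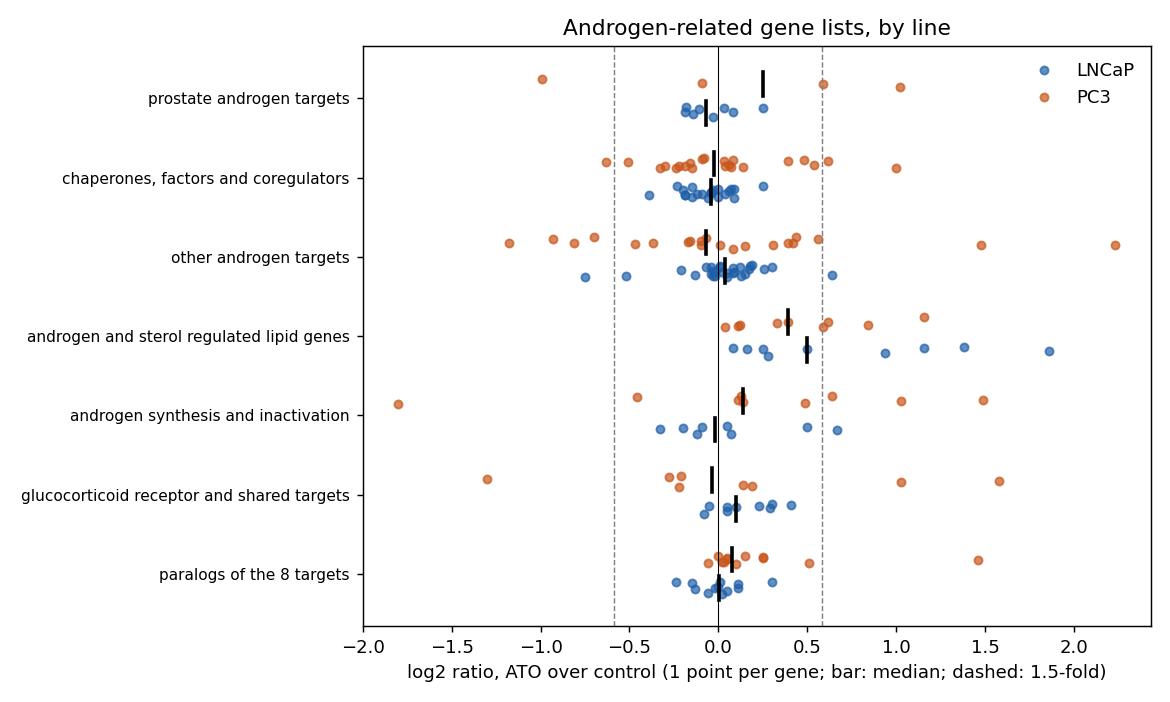
Log2 ratio of ATO over control for the brightest probe of each gene in each list, blue for LNCaP and orange for PC3, with bounds entered at their value and a black bar at the median. Dashed lines mark 1.5-fold; the lipid genes have medians of 0.50 and 0.39, and the other lists drawn here have medians between -0.07 and 0.25.

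Genes with the pattern nearest to each of the 4 members measured on all arrays were sought among 11016 genes, by the Euclidean distance over 3 log2 differences (ATO over control in each line, and PC3 control minus LNCaP control). For SLC45A3 they were TSTD1 (distance 0.07), TC2N (0.14) and C20orf134 (0.16). For TMPRSS2 they were CR604707 (0.34), TLCD1 (0.36) and ZG16B (0.37), and for FKBP5 FAM198B (0.26), LOC100130387 (0.36) and SNAR-A3 (0.39). For STEAP2 they were DHRS13 (0.31), ANKHD1-EIF4EBP3 (0.33) and HSD17B8 (0.38). None of the 8 genes was among the nearest 3 of another.

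Markers of cell identity were read in both lines. Between the control arrays, at 2-fold, 2 of 8 luminal markers were higher in LNCaP and 2 lower, where 39.6% of all genes differed. All 3 basal and all 4 mesenchymal markers with a value were higher in PC3. Except for VIM these are bounds that could only favour PC3. After ATO the shares of all genes past 1.5-fold were 4.75% in LNCaP and 18.5% in PC3. All 8 luminal epithelium markers had a value in both lines, with 0 of 8 past 1.5-fold in LNCaP and 2 higher in PC3, where KRT19, a keratin, went from 33580 to 54028 units (0.73, and 0.38 at the lowest across scalings). HOXB13 had the largest luminal ratio in LNCaP at -0.19 by the brightest probe of each gene. The dimmer KRT8 probe went from 162 to 97.8 units in LNCaP (-0.83, in a bright local background), against 0.10 by the brighter one. Of 5 basal markers none was well above background on either LNCaP array and 3 had a value in PC3, with no common direction. Their PC3 ratios were -0.52 for KRT14 and 0.50 for ITGB4, each in a bright local background, and -0.16 for CD44. Of 5 mesenchymal markers 1 had a value in LNCaP, VIM, which went from 65.3 to 138 units (0.98, and 0.53 at the lowest across scalings, under the threshold), and in PC3 2 of 4 were lower, CAV1 from 12387 to 5019 (-1.26) and CDH2 from 4125 to 1829 (-1.12). Of the 6 neuroendocrine markers only ENO2 had a value, with log2 ratios of 0.13 in LNCaP and 0.56 in PC3, both in bright local backgrounds. Of the 6 fibroblast and leukocyte markers COL1A1 was measured on all arrays, with ratios of 0.07 and 0.17 (the latter in a bright local background), and PTPRC was well above background in LNCaP control alone, by 1 of its 5 probes.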

How the data were processed

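Total RNA of 4 cultures was hybridised to Agilent 4x44K human arrays in 1 colour. The scanner files hold spot intensity, produced by the authors in Agilent Feature Extraction 9.5.3.1; per the file headers it is background-subtracted and detrended, with a surrogate where not above background. The deposited value table holds a ratio, found to be that intensity over the array's 75th percentile (100% of single-spot probes above 1 lay within 2%).

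From the intensity, log2 values minus the 75th percentile were computed with outlier spots left out (Python 3.11.15). Well above background means over 50% of a probe's spots, and a gene was its brightest probe. Thresholds were 1.5-fold within and 2-fold between lines. limma 3.58.1 in R 4.3.3 (two-sided, Benjamini-Hochberg over all genes tested) was tested on simulated data first. Where nothing says otherwise the arrays are single cultures, so its p-values measure only the spread between these 4 arrays. All arrays lay on 1 slide and in 1 scan.

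Members, lists, thresholds and tests were chosen with earlier results of these data known. Named were all members, NR3C1 and at most 3 genes per list and line by largest ratio. Also named were the 3 genes nearest to each member measured on all arrays. FOLH1B, NCOA2, PMEPA1, SLC43A1, ELL2, IDI1, SCD, CYP17A1, KLK5, KLK6, STEAP3, PTPRC, ITGB4 and CD44 were named after their values were seen. Names follow the array's design, and 7 of 8 members carry the current RefSeq symbol. Coordinates of probes are hg18 as in the files, and exon positions were not used here. Some genes that the rule would name are not reported here and were left out of the lists.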

Additional observations from a re-analysis of the deposited data

Results flagged for a closer look

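The log2 ratios after ATO had opposite signs in the lines for 2 of the 4 genes measured in both, and the difference was not tested for either, since each group had 1 array. In both cases 1 of the signs was not settled. TMPRSS2 differed by 1.05 (log2 ratio in PC3 minus that in LNCaP), with its LNCaP ratio of -0.03 too near 0 to hold a sign across scalings. STEAP2 differed by -0.35, with its PC3 ratio of -0.09 likewise changing sign between scalings.

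Among the genes of the lists measured on all arrays, some were opposite in sign between the lines and past 1.5-fold in 1 line. The same untested difference was 0.76 for SPDEF, -1.22 for C1orf116, -1.08 for PMEPA1, -0.83 for ELL2, 1.13 for SULT2B1 and 0.81 for KRT19. The second PMEPA1 probe was lower in both lines, at -0.14 in LNCaP and -0.97 in PC3. The LNCaP ratios of SULT2B1 (-0.09) and KRT19 (-0.08) changed sign between scalings. Ranges across scalings were not taken for PMEPA1 and ELL2. The PC3 spots of SPDEF, SULT2B1 and ELL2 lay in a bright local background on at least 1 array. The PC3 ratios of SPDEF and KRT19 fell under 1.5-fold in some scalings, at 0.48 and 0.38 at the lowest.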

How the results depend on the processing

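Alternatives were scaling to the 50th percentile, to spike-in probes or by quantiles, normexp, the deposited table, the median over probes, no filter on dim probes, bright local backgrounds left out, and stricter thresholds. No log2 ratio of the 8 genes reversed past a threshold. Without the filter on dim probes 4 of 8 members passed in PC3, with FOLH1 added as higher, although it was not well above background there. With a 2-fold threshold 1 member (TMPRSS2) passed in PC3, and with probes well above background on both control arrays 4 could be compared between lines. The PC3 median of the members was 0.44 with the 50th percentile, where the median over all genes became 0.19, and 0.80 with bright local backgrounds left out, which removes FKBP5 and STEAP2. Relative to that shift TMPRSS2, at 1.22, did not move. In LNCaP the members' median was 0.03 with spike-in scaling and 0.02 with normexp. KLK2 in LNCaP was at 0.04 by the median over probes. In limma 5 genes passed for the treatment with the 50th percentile, and 4518 for the line without a filter on dim probes. The split of calls in PC3 was 2154 to 910 (higher to lower) by the 50th percentile and 809 and 1855 with spike-in probes, against 1133 and 1419 by the 75th; between lines it was 4737 and 2257, and 1508 and 4631, against 2897 and 3139. The cause was not tested. Depth of signal limits ACPP, dim in LNCaP, and the 4 members not well above background in PC3. The treatment test already pairs control and ATO by line; no paired analysis by replicate number was possible because each group had 1 array.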
